A study of Mus musculus with 8 samples.

Results

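Immunoglobulin chains and the genes of the cells that secrete them were measured in the pancreas of 12-week-old NOD mice. The members are the probes whose gene name begins with Igh, Igk or Igl and is an immunoglobulin segment, together with the probes of Igj, Sdc1, Prdm1, Irf4, Pou2af1 and Tnfrsf17. They carried 32 of the 21597 gene names on the array and were read by 57 of its 41174 distinct probes. Of these, 30 were heavy chain, 12 kappa, 8 lambda and 7 plasma cell gene probes.

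Each of 8 female NOD (NOD/LtJ) mice, a strain with autoimmune insulitis, gave 1 pancreas RNA that was labeled red (Cy5) and put on its own array. On every array the green (Cy3) label was the same pool of pancreas RNA from 8 female NOD.B10 (NOD.B10Sn-H2b/J) mice of that age, which carry the H2b haplotype on the NOD background and do not become diabetic. No mouse was treated, and no animal of the pool was measured alone, so the spread reported here is that among NOD mice and arrays only. All 8 arrays used the same dye for the same strain, and a dye effect at a single probe cannot be told apart from a strain difference.

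An antibody is made of paired heavy and light chains, each with a variable part that binds antigen and a constant part. A B cell joins V, D and J segments for the variable part of its heavy chain, and V and J segments for a kappa or lambda light chain. It first places the joined segment beside the mu constant gene, and class switching can later replace mu with a gamma, epsilon or alpha gene further along the cluster. Plasma cells are the end stage of this line and devote much of their messenger RNA to immunoglobulin. In NOD mice, B cells present antigen to autoreactive T cells and gather with them around the islets, where plasma cells can also be found.

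The value at each probe is the log2 ratio of the NOD mouse over the pool, so 1 stands for a 2-fold higher signal in NOD. In a whole pancreas, more cells of a type and more RNA per cell cannot be told apart. A probe entered the test if its red signal reached 25 on 4 or more of the 8 arrays, a filter on the NOD signal alone that a transcript found mainly in the pool would not pass. Of the 57 members, 41 passed. A call required an adjusted p under 0.01 (limma, Benjamini-Hochberg adjustment over all 28105 probes tested) together with a ratio of 2-fold or more.

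The probes called higher in NOD were a pair of heavy chain probes at the alpha end of the constant gene cluster, with 5.3-fold and 3.68-fold higher signals. A lambda light chain probe and Igj had the next highest means outside that cluster, 1.66 and 1.57, without passing the call. The means of most variable region and kappa probes lay near the pool, at NOD signals that were mostly near background. Of the 41 tested members, 2 were called higher in NOD, against 0.310% of all probes tested, and 0 were called lower, against 1.41% of all probes. Both called probes were designed on the same transcript, BC004786, so they are not separate transcripts of the set. At an adjusted p under 0.05 with no fold limit, 7 members were higher (5.50% of all probes tested) and 2 lower (13.8%). The median log2 ratio was 0.27 over the tested members and -0.09 over all probes tested, and 33 of the 41 means were above 0, against 34.5% of the means of all probes tested. At an unadjusted limma p under 0.05, 7 members were at least 2-fold higher, against 0.726% of all probes tested, and 1 at least 2-fold lower, against 2.98%. Each of these groups of 7 higher members held the 3 probes of BC004786. Igj, Igh-6 and Igl-V1 also had more than 1 probe.

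**Figure D1:**
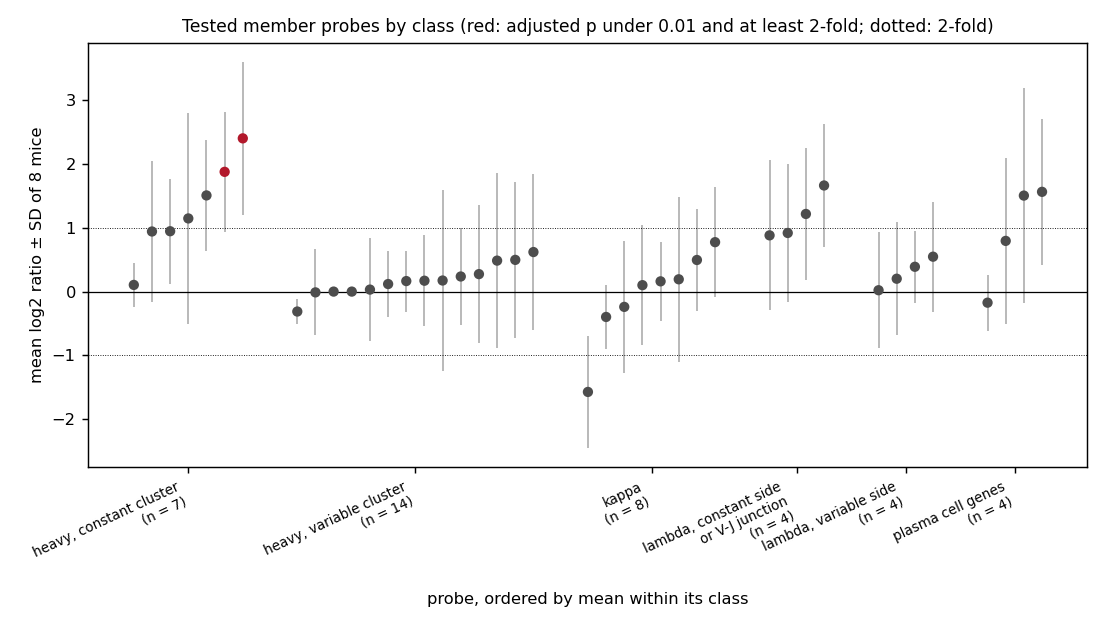
Mean log2 ratio of each of the 41 tested member probes (points, with bars of 1 SD over 8 mice), grouped by class and ordered by mean within a class. The 2 called probes (red) lie in the heavy chain constant cluster at 1.88 and 2.40. The 14 heavy chain probes of the class labeled variable cluster lie between -0.31 and 0.62, and they include the Ighv4-2 probes, placed on chromosome 6.

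The signal behind these ratios was uneven. By the software's flag, red stood well above background on 4 or more arrays for 13 of the 57 members and on no array for 34. For 35 members a stand-in value, set from background noise, took the place of red on 4 or more arrays. The log ratio was deposited as exactly 0 on 5 or more arrays for 16 members. No member was saturated. Over all spots that flag was met in red by 21.6% to 35.3% per array and in green by 57.6% to 60.7%.

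The heavy chain constant genes lie in 1 cluster on chromosome 12, and 7 member probes fell in it by the mm8 positions of the files. All 7 passed the filter and had means above 0, with a median of 1.15 and a range from 0.10 to 2.40. The 14 tested heavy chain probes outside the constant cluster had a median of 0.17. Red was well above background on 4 or more arrays for all 7 probes of the cluster, and for 1 of the 23 heavy chain members outside it. Of those 23, 20 had a stand-in red value on 4 or more arrays, so the medians were taken at unlike signals. In the mm8 coordinates the cluster runs from the mu probes at its variable end, past a gamma probe 115.0 kb away and an I alpha probe 156 kb away, to 3 probes 162 to 163 kb away.

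Those last 3 probes are listed under the gene name Igh-VJ558, a large family of heavy chain variable segments, and all were designed on the transcript BC004786. Their positions are not among the variable segments. They lie 5.86 kb beyond the I alpha probe, on the side away from the mu gene, while the lowest member probe of the variable cluster lies 167 kb on the other side of mu. In the GRCm38 annotation, used here only for the order of genes, Igha is the outermost constant gene on that side. The 3 probes are therefore called the alpha-end probes, by position and not by their gene name.

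All 3 alpha-end probes were higher in NOD than in the pool in 8 of 8 mice. Probe A_51_P187645 (mm8 chromosome 12, 113706720 to 113706779) had log2 ratios with a lowest value of 0.25, a median of 2.94 and a highest value of 3.29. Mice 1 and 5 were the lowest, at 0.80 and 0.25, and the other 6 mice lay between 2.57 and 3.29. The mean was 2.40 ± 1.20 (SD, n = 8), a 5.3-fold higher signal (limma adjusted p = 0.00704). Red signals ranged from 462 to 11127 and those of the pool from 387 to 1139, with an SD of the log2 signals over arrays of 1.68 for red and 0.55 for green.

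Probe A_51_P509679 (113706582 to 113706641) had a lowest value of 0.05, a median of 2.27 and a highest value of 2.58. Again mice 1 and 5 were lowest, at 0.77 and 0.05, and the others lay between 2.13 and 2.58. The mean of 1.88 ± 0.94 (SD, n = 8) is a 3.68-fold higher signal (limma adjusted p = 0.00718). Probe A_51_P180159 (113706840 to 113706899) ranged from 0.10 to 2.18 with a median of 1.86, and its mean of 1.51 ± 0.88 (SD, n = 8) did not pass the call (limma adjusted p = 0.0125). The exact sign-flip test over the 8 mice gave p = 0.00781 for each of the 3, which is the smallest value it can give.

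With 1 mouse left out at a time, the mean ran from 2.28 to 2.71 for A_51_P187645 and from 1.78 to 2.14 for A_51_P509679. Their adjusted p ran from 0.00451 to 0.0223 and from 0.00328 to 0.0226, and no member was called higher without mouse 2, 3, 4, 6, 7 or 8, against 3 without mouse 1 and 4 without mouse 5. Over the whole array the probes called higher also fell, from 87 to between 49 and 76. With normexp background correction and loess the means were 1.27 and 1.13 and neither was called (limma adjusted p = 0.0240 and 0.0277).

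The alpha-end probes could not be matched to Igha by sequence, and what follows is background on the classes only. Secreted mu and alpha heavy chains, unlike gamma, end in a tailpiece whose last but 1 residue is a cysteine, the residue through which the J chain, the product of Igj, joins IgM and IgA into polymers. The last 60 coding bases of the secreted forms are shown from the GENCODE M21 transcripts on GRCm38 (minus strand) to set these classes side by side, with the cysteine codon in capitals where it is present. They are gene sequences and not those of the probes. They lie at chr12:113420870-113420929 (Ighm), chr12:113258771-113258830 (Igha) and chr12:113328979-113329038 (Ighg1).
Ighm: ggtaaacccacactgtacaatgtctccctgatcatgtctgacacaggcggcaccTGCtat
Igha: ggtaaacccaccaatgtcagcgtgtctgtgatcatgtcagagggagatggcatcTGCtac
Ighg1: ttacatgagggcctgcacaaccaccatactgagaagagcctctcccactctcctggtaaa

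**Figure D2:**
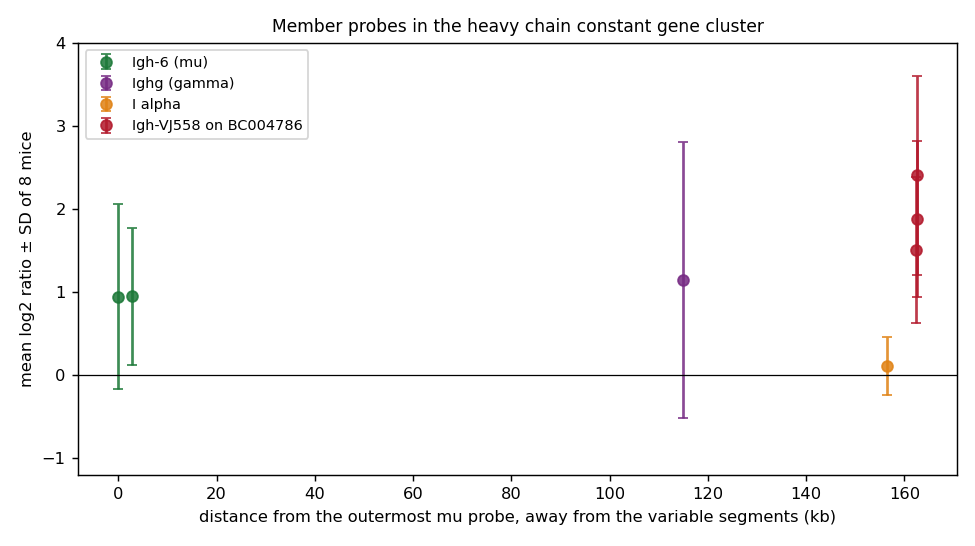
Mean log2 ratio (± SD over 8 mice) of the 7 member probes in the heavy chain constant cluster against their mm8 distance in kb from the outermost mu probe. The 3 alpha-end probes at 162 to 163 kb have means of 1.51 to 2.40, and the I alpha probe at 156 kb has a mean of 0.10.

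The I alpha probe (A_51_P270661, 113712756 to 113712814) carries a different kind of transcript. I exons lie upstream of constant genes and are transcribed before class switching, without coding for an antibody chain. Its log2 ratios ran from -0.29 to 0.69 with a median of -0.04, and mice 5 and 1, the lowest at the alpha end, were here the highest at 0.69 and 0.52. The mean was 0.10 ± 0.35 (SD, n = 8, limma adjusted p = 0.561).

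Mu is the constant chain of IgM, the class made before switching, and is listed as Igh-6 (now Ighm). Probe A_52_P358360 (113866458 to 113866517) had a lowest value of -0.45, a median of 1.15 and a highest value of 1.91. Mice 5 and 1 lay below the pool and the other 6 above it. Its mean was 0.95 ± 0.82 (SD, n = 8, limma adjusted p = 0.0498), a 1.93-fold higher signal that did not pass the call. The other mu probe, A_51_P485421 (113869227 to 113869286), was printed at 10 spots on each array and averaged 0.94 ± 1.11 (SD, n = 8, limma adjusted p = 0.120), with a range from -0.50 in mouse 5 to 2.74 in mouse 6. The SD among its 10 spots within an array had a median of 0.29 and ranged from 0.10 to 0.67, below the 1.11 between mice. The remaining Igh-6 probe, A_52_P311042, is described by no class and lies among the variable segments (114736061 to 114736120). It did not pass the filter, had a stand-in red value on 7 arrays and averaged -0.45 ± 0.51 (SD, n = 8, exact sign-flip p = 0.0469), with 6 mice below the pool.

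Gamma chains form IgG. Probe A_52_P74106, listed as Ighg (113754262 to 113754321), ranged from -1.98 in mouse 5 to 2.77 in mouse 6 with a median of 1.57. Its mean of 1.15 ± 1.66 (SD, n = 8) had the widest spread of the 7 cluster probes and was not called (limma adjusted p = 0.194). The second Ighg probe, A_51_P117903, lies among the variable segments by position (114379875 to 114379933) and did not pass the filter. Its ratio was exactly 0 on 5 arrays, with a mean of -0.10. Which gamma subclass A_52_P74106 reads is not stated in its description.

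Igj, the J chain gene, had 2 probes on chromosome 5. The brighter, A_51_P150710 (89595455 to 89595514), had a lowest value of -0.67, a median of 1.91 and a highest value of 2.80. Mouse 5 was below the pool, mouse 1 followed at 0.68 and mice 2, 4, 6 and 7 were highest, at 2.20 to 2.80. The mean was 1.57 ± 1.14 (SD, n = 8), a 2.96-fold higher signal that was higher in 7 of 8 mice and not called (limma adjusted p = 0.0278). The dimmer probe, A_51_P150705, averaged 1.51 ± 1.68 (SD, n = 8, limma adjusted p = 0.104), with mice 1, 5 and 8 below the pool.

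The 8 lambda probes were all listed as Igl-V1 (now Iglv1), the main lambda variable segment of the mouse, but their mm8 positions on chromosome 16 put them at different parts of the transcript. Of these, 4 lie on the V side, 2 on the constant side, and 2 have positions that begin in V and end in J. These 2 spans, less the 60 bases of the probe, are 21755 and 21758 bases long, and in GRCm38 the V segment Iglv1 and the J segment Iglj1 are 21754 bases apart. They are called junction probes here, since only a joined V and J segment brings both parts together. The end of the V segment (GRCm38 chr16:19085017-19085076, minus strand) and the J segment (chr16:19063225-19063262, minus strand) are shown from GENCODE M21 because they are the parts that such a probe reads together, with the conserved cysteine codon of V and the phenylalanine and glycine motif of J in capitals.
Iglv1: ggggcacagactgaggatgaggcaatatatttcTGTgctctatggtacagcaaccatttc
Iglj1: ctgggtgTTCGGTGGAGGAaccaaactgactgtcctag

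The lambda means were 0.92 and 1.66 on the constant side, 0.88 and 1.22 at the junction and 0.02 to 0.55 on the V side. All 8 probes were tested, all 8 means were above 0, and the median was 0.71. Probe A_51_P503756 of the constant side (mm8 18975296 to 18975355) had a lowest value of -0.03, a median of 1.88 and a highest value of 2.90. Mouse 1 was lowest, mouse 5 next at 0.72 and mouse 2 highest. The mean was 1.66 ± 0.96 (SD, n = 8), a 3.17-fold higher signal in 7 of 8 mice that did not pass the call (limma adjusted p = 0.0123). The other constant side probe, A_52_P450277, averaged 0.92 ± 1.08 (SD, n = 8, limma adjusted p = 0.120).

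The junction probes averaged 1.22 ± 1.03 (A_52_P383114, SD, n = 8, limma adjusted p = 0.0458) and 0.88 ± 1.17 (A_51_P503757, SD, n = 8, limma adjusted p = 0.162). These probes were singled out after their values were seen. A_52_P383114 had a ratio of exactly 0 on the arrays of mice 5, 7 and 8 and ratios of 1.67 to 2.33 in the other 5 mice, and no array had red well above background. The 4 V side probes had red well above background on at most 1 array each. The difference between the sides was not tested as such.

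Kappa is the light chain that most mouse antibodies carry, and its members gave little signal. Of 12 probes, 8 passed the filter, and their median was 0.13 with 5 means above 0. On 4 or more arrays, red was well above background for 0 of the 12 and a stand-in value for 10. The member described as kappa chain C region is listed as Igkv14-111 (A_51_P390937, mm8 chromosome 6, 68186355 to 68186414) and lies among the variable segments by position, so the kappa constant gene itself has no clear probe among the members. Its ratios ran from -1.51 in mouse 4 to 1.51 in mouse 6, with a median of -0.60, and they averaged -0.24 ± 1.03 (SD, n = 8, limma adjusted p = 0.662).

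Other probes under that name were described as mouse mammary tumor virus sequence and lie on chromosome 12. There were 2, with means of 0.10 and -0.12, and 1 was tested (limma adjusted p = 0.878). They were kept as members by their gene name only.

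The kappa probe farthest from the pool was Igk-V8-16 (A_52_P400905, now Igkv8-16), which was named after its values were seen. Its ratios ran from -2.15 to 0.52 with a median of -1.82, and mouse 5 was the only mouse above the pool. The mean of -1.57 ± 0.87 (SD, n = 8) did not pass the call (limma adjusted p = 0.0105). Red was replaced by a stand-in value on 6 of 8 arrays while green was well above background on all 8, so this difference rests on stand-in values in NOD.

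Heavy chain probes outside the constant cluster, most of them variable segments, make up the largest group of members, with 23 probes, 2 of which (Ighv4-2) are placed on chromosome 6 by the files. The 23 include the second Ighg probe and the Igh-6 probe A_52_P311042, which lie there by position. Of these, 14 passed the filter, 0 were called, and 10 means were above 0. A single variable region probe had the same direction in all 8 mice, Ighv1-2 (A_52_P1113, chromosome 12, 114917121 to 114917180). Its ratios were all below 0, from -0.64 to -0.12 with a median of -0.21, averaging -0.31 ± 0.20 (SD, n = 8, limma adjusted p = 0.0189), which is under 2-fold. Of the 23, 20 had no array with red well above background and 12 had a ratio of exactly 0 on 5 or more arrays, among them Ighv1-80, Ighv6-3 and Ighv6-6, at 0 in all 8 mice. The largest single values, 3.89 for Igh-VX24 and 3.49 for Igh-VJ558 probe A_52_P213483, both in mouse 7, stood beside ratios of 0 in most other mice and were picked out after the values were seen.

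The remaining plasma cell genes were not compared with Igj by a test. Pou2af1, a coactivator that works with octamer-binding factors at immunoglobulin promoters in B cells, had a lowest value of -0.82, a median of 0.99 and a highest value of 2.34. Mice 1, 5 and 8 were below the pool and the other 5 above it, as at the dimmer Igj probe. The Pou2af1 mean of 0.80 ± 1.30 (SD, n = 8) was not called (limma adjusted p = 0.249). Sdc1, syndecan 1, marks plasma cells and is also made by epithelial cells. Its ratios ran from -0.90 in mouse 2 to 0.51 in mouse 8, with a median of -0.12, and they averaged -0.17 ± 0.44 (SD, n = 8, limma adjusted p = 0.463).

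The other 3 genes did not pass the filter. Without it, over 34850 probes, the limma adjusted p was 1 for Irf4, 0.0805 for Prdm1 and 1 for Tnfrsf17. Irf4, a transcription factor needed for plasma cells, had a ratio of exactly 0 on all 8 arrays. Prdm1, which encodes the repressor Blimp-1 that drives plasma cell fate, had stand-in red values on all 8 arrays. Its ratios ran from -1.74 to 0 with a mean of -0.72 ± 0.68 (SD, n = 8, exact sign-flip p = 0.03125). Tnfrsf17 (BCMA), a survival receptor of plasma cells, averaged -0.04 ± 1.12 (SD, n = 8), with a ratio of exactly 0 on 4 arrays and 2.38 in mouse 4. The ratios of these 3 genes rest on red signals near noise, and no difference in their transcripts can be read from them.

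**Figure D3:**
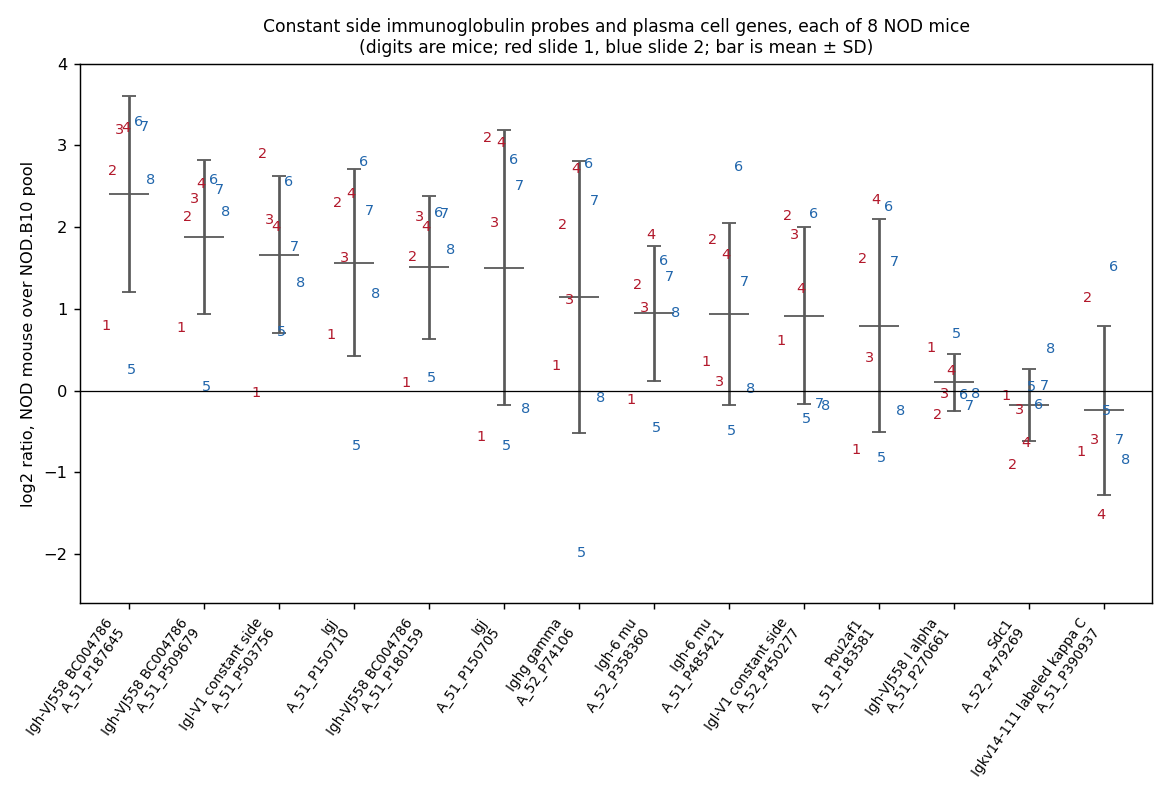
Log2 ratio of each NOD mouse over the pool (digits are mice, red for slide 1 and blue for slide 2) for the tested constant side probes and plasma cell genes, with the mean and SD of 8 mice. Mice 1 and 5 have the 2 lowest values at each of the 3 Igh-VJ558 probes on BC004786, and 0.52 and 0.69 at the I alpha probe.

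Differences between classes were tested within each mouse, which takes out of the comparison what acts on all probes of an array alike. The class make-up of the single pool stays in every difference, and the tests and the interval carry no spread for the pool. The probe with the highest signal of each class was used, mu, gamma, I alpha, the probe labeled kappa C region and Igj, for 10 pairs. No pair reached an adjusted p under 0.05 in the exact sign-flip test over 8 mice (smallest adjusted p = 0.0781, and 4 pairs had an unadjusted p under 0.05). Igj exceeded mu in 7 of 8 mice, the difference of mu minus Igj being -0.62 ± 0.45 (SD, exact p = 0.0156, adjusted p = 0.0781), and the difference of mu minus gamma was -0.20 ± 0.98 (SD, exact p = 0.578), with a 95% interval of -0.95 to 0.71.

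The alpha-end and lambda constant side probes were set beside these classes by position, after their high values were seen, so their differences are given as a description with no test. Mu minus the alpha-end probe A_51_P509679 was -0.93 ± 0.29 (SD, n = 8), and the alpha-end probe was the higher of the pair in 8 of 8 mice. The brighter lambda constant side probe, A_51_P503756, was above mu in 8 of 8 mice, with mu minus lambda at -0.72 ± 0.56 (SD, n = 8), while the other, A_52_P450277, was above mu in 5 of 8, with a difference of 0.027 ± 0.96. Gamma minus the alpha-end probe was -0.73 ± 0.99 and Igj minus the alpha-end probe -0.31 ± 0.45 (SD, n = 8). The differences to the probe labeled kappa C region rest largely on stand-in values, since its red signal was one on 5 of 8 arrays and well above background on 1. These are differences between ratios, not between amounts of the chains.

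The mice differed across the members. Over the 19 tested immunoglobulin members whose green signal was well above background on all 8 arrays, the median log2 ratio per mouse was -0.03, 1.13, 1.03 and 1.30 in mice 1 to 4, and -0.17, 1.78, 0.61 and -0.08 in mice 5 to 8. Mouse 5 was among the 2 lowest at 13 of the 19 probes and mouse 1 at 9, and mouse 6 was among the 2 highest at 14. The immunoglobulin locus also has 59 tested probes listed under other names, with 1 called higher (0.328% of probes with or without a symbol) and a median of 0.31. At the 28 of them with green well above background on all arrays, the medians in mice 1 to 8 were -0.25, 0.60, -0.03, 0.61, -0.30, 0.55, 0.42 and -0.59.

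Mice 1 to 4 were on slide 1 and mice 5 to 8 on slide 2. By the same call in limma 0 tested members differed between the slides (0.114% of all probes tested), and at an unadjusted p under 0.05 2 did, against 19.3% of all probes. These were Sdc1, at -0.46 on slide 1 and 0.11 on slide 2, and the lambda junction probe A_52_P383114, at 1.89 and 0.55. The 2 called probes averaged 2.47 and 1.94 on slide 1 and 2.34 and 1.82 on slide 2, and on either slide alone no member was called higher, where 0 and 2 of all 28105 probes were. Among the plasma cell genes Prdm1 was at -0.14 on slide 1 and -1.31 on slide 2 (exact 4 against 4 permutation p = 0.0286, the smallest that 4 against 4 allows), at stand-in red signals. The software had not rated as good the grid of the arrays of mice 5, 6 and 7, and with those 3 left out the means of the called probes were 2.49 and 1.99 and neither was called (limma adjusted p = 0.0334 and 0.0269), with 4 of all 28105 probes called higher there.

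Genes of related cells and pathways were read from lists, with 1 probe per gene, and 0 of the 88 tested genes of the 8 lists were called by limma, where 0.310% of all probes were called higher and 1.41% lower. At an unadjusted p under 0.05, 6 were at least 2-fold higher and 0 lower, against 0.726% and 2.98% of all probes. Among 19 tested B cell genes the median was 0.15, and the 3 with the largest means were Cd79b, a chain of the B cell receptor complex, at 1.18 ± 1.39 (limma adjusted p = 0.120), Ms4a1, which encodes CD20, at 1.01 ± 1.51 (adjusted p = 0.206) and Cd22, a B cell inhibitory receptor, at 0.80 ± 0.75 (SD, n = 8, limma adjusted p = 0.0619). Cd79b and Ms4a1 were below the pool in mice 1 and 5 and above it in the other 6, with ratios from -1.54 to 2.57 and from -1.41 to 2.77. Of the other B cell genes in the list, Cd79a averaged -0.35 and Blk was at 0 on all 8 arrays. The part of B cell number in the immunoglobulin ratios was not tested.

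Plasma cell genes beyond the members had a median of 0.11 over 16 tested genes, and several of them also serve the secretory cells of the exocrine pancreas. The gene 2010001M09Rik, now named Mzb1, which helps antibody assembly, was higher in 8 of 8 mice at 0.44 ± 0.12 (SD, n = 8, limma adjusted p = 0.00104), which is under 2-fold. Ccr10, a homing receptor of IgA plasma cells, was lower in 8 of 8 mice at -0.97 ± 0.43 (SD, n = 8, limma adjusted p = 0.00485), also under 2-fold and with red well above background on no array. With normexp and loess Ccr10 was at -0.014 and on median-centered signals at -0.38. Eaf2 averaged -0.44 ± 0.49 (SD, n = 8, limma adjusted p = 0.105).

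The survival and help signals of B cells had a median of 0.04 over 9 tested genes. Il21r, the receptor of a T cell cytokine that drives plasma cell formation, was higher in 8 of 8 mice at 0.65 ± 0.18 (SD, n = 8, limma adjusted p = 0.00110), under 2-fold, mouse 5 having the highest ratio at 0.96. Tnfrsf13c (BAFF receptor) averaged 0.80 ± 1.12 and Il6ra -0.36 ± 0.50 (SD, n = 8, limma adjusted p = 0.179 and 0.182). At Tnfrsf13c red was a stand-in value on 4 arrays and well above background on 1. Its mean was 0.095 with normexp and loess and 2.08 on median-centered signals. In the germinal center and class switching list (median -0.06 over 9 genes), Bcl6, the master repressor of germinal center cells, averaged -0.68 ± 0.50 (limma adjusted p = 0.0282), Edg5 (now S1pr2) -0.22 ± 0.37 and Mef2b 0.20 ± 0.15 (SD, n = 8, limma adjusted p = 0.261 and 0.0360), and the other Mef2b probe had a mean of -0.29.

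Among the 5 tested genes of the surrogate light chain and recombination list (median -0.23), Dntt, which adds bases at V(D)J joints, was higher in 8 of 8 mice at 0.78 ± 0.35 (SD, n = 8, limma adjusted p = 0.00510) and under 2-fold. The same Dntt probe was at 0.059 with normexp and loess and 0.076 on median-centered signals, and the other 2 Dntt probes had means of -0.02 and 0.05. Vpreb1 and Vpreb2, parts of the surrogate light chain of precursor B cells, had means of -0.62 and -0.43. The 8 tested genes of antibody transport and Fc receptors had a median of 0.13. Fcer1g, the signaling chain of several Fc receptors, was higher in 8 of 8 mice at 0.34 ± 0.15 (SD, n = 8, limma adjusted p = 0.00507). Fcgr1 and Fcgr2b, receptors for IgG, had means of 0.63 ± 0.58 and 0.55 ± 0.45 (SD, n = 8, limma adjusted p = 0.0607 and 0.0405). The Fcgr2b value was 0.021 with normexp and loess and turned to -0.13 on median-centered signals, and the other 2 Fcgr2b probes had means of -0.36 and -0.14. The second probes of Fcgr1 and Fcer1g had means of -0.18 and -0.04.

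In the deposited ratios, though not in the other forms given below, T cell genes had the highest list median, 0.59 over 13 tested genes. Lck averaged 2.30 ± 1.35, Cd3d 2.07 ± 1.14 and Cd5 1.32 ± 0.78 (SD, n = 8, limma adjusted p = 0.0128, 0.0101 and 0.0133). The median of the T cell list per mouse ran from 0.19 to 0.48, and mice 1 and 5 stood at 0.34 and 0.43. Over the 9 T cell genes with green well above background on all arrays it ran from 0 to 0.44, against -0.17 to 1.78 for the 19 immunoglobulin members under that filter. The 9 B cell genes under it ran from -0.98 in mouse 1 to 0.92 in mouse 4, with mice 5 and 8 also below 0, at -0.27 and -0.15. Over all 37 tested immunoglobulin members the median was 0 in mice 1, 2, 5, 7 and 8, and 0.14, 0.29 and 1.51 in mice 3, 4 and 6. Lymph node stroma and vessel genes had a median of -0.16 over 9 tested genes. In that list Ccl19, a chemokine of T cell zones, averaged 1.32 ± 0.74, Glycam1, made by high endothelial vessels, 0.99 ± 1.35 and Cxcl13, which draws B cells into follicles, 0.95 ± 0.88 (SD, n = 8, limma adjusted p = 0.0109, 0.170 and 0.0614). At Glycam1 red was a stand-in value on 4 arrays and well above background on 1. Its mean was 0.12 with normexp and loess and 2.08 on median-centered signals. Other genes of the list lay below the pool, among them Fut7 and Chst4, enzymes that make L-selectin ligands in high endothelial vessels, at -0.83 ± 0.56 and -0.84 ± 0.72 and lower in 8 of 8 mice (SD, n = 8, limma adjusted p = 0.0212 and 0.0481). With normexp and loess Fut7 was at -0.090 and Chst4 at -0.0075, on median-centered signals they were at -1.09 and -0.084, and red was well above background on 0 and 1 arrays. Both were picked after their values were seen, and they and Ccl19 were the 3 genes of the list at an adjusted p under 0.05. Per mouse the list median ran from -0.97 in mouse 8 to 0.40 in mouse 2. Whether lymph node tissue in a sample has a part in the immunoglobulin ratios was not tested.

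The 7 tested exocrine pancreas markers had a median of 0.05, and both dyes were well above background at each of them on every array. Their median per mouse ran from -0.02 in mouse 8 to 0.48 in mouse 6, which was also the mouse with the highest immunoglobulin median. Mouse 5 had the next highest exocrine median, 0.23, and the lowest median over the 19 immunoglobulin members, -0.17.

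**Figure D4:**
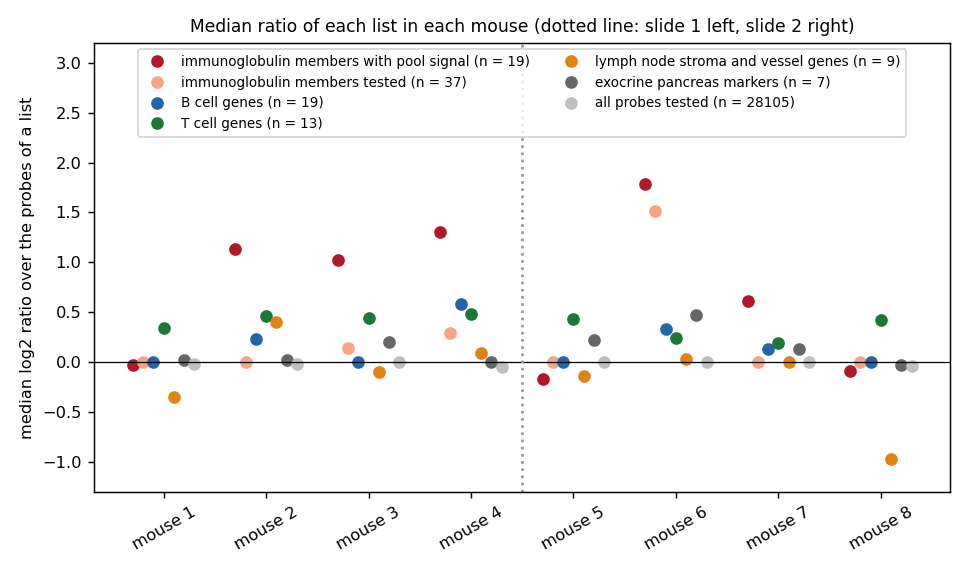
Median log2 ratio over the probes of each list (y axis) in each of the 8 NOD mice (x axis, slide 1 left of the dotted line). The 19 immunoglobulin members with green well above background on all arrays (red) range from -0.17 in mouse 5 to 1.78 in mouse 6, all 37 tested ones (light red) from 0 to 1.51, and the T cell genes from 0.19 to 0.48.

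The level of the members depended on how the ratio was made. On background-subtracted signals centered on the median, the 2 called probes had means of 1.74 and 1.27 and the brighter Igj probe of 1.75, and with normexp and loess the same 3 were at 1.27, 1.13 and 0.93. Of the 14 tested probes of the constant side and the plasma cell genes, 13 kept their sign under the 5 ways of making the ratio, and the probe labeled kappa C region did not. The median of all probes tested moved from -0.09 in the deposited ratios to 0.087 on median-centered signals and to -0.0066 with normexp and loess. The probes called higher and lower over the whole array were 87 and 397 in the deposited ratios, 5976 and 1272 on median-centered signals and 61 and 26 with normexp and loess. The 3 genes with the largest mean change in each of the 8 lists make 24. All 24 lay nearer 0 with normexp and loess, and 5 (Il6ra, Edg5, Fcgr2b, Vpreb1 and Vpreb2) changed sign in 1 or both other forms. The list medians of T cell genes were 0.59, 0.62 and 0.071 in those 3 forms, and those of B cell genes 0.15, 1.10 and 0.021. The medians of the germinal center, surrogate light chain and lymph node lists, all below 0 in the deposited ratios, were above 0 in both other forms, and that of the exocrine markers was 0.05 in the deposited ratios and 1.55 with normexp and loess.

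**Figure D5:**
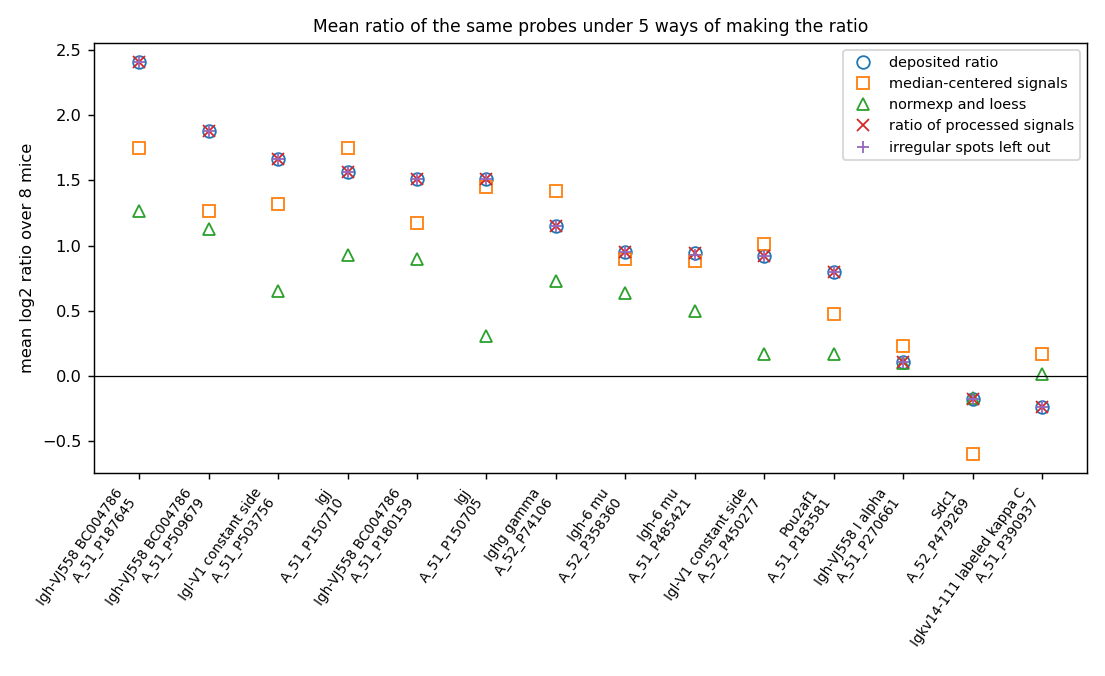
Mean log2 ratio over 8 mice of the tested constant side probes and plasma cell genes under 5 ways of making the ratio. The deposited ratio, the ratio of processed signals and the ratio without irregular spots nearly coincide, and normexp with loess gives the lowest mean for the 11 probes at the left, for example 1.27 against 2.40 at A_51_P187645.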

How the data were processed

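Pancreas RNA of 8 NOD mice was hybridized against 1 NOD.B10 pool on Agilent two-color arrays. The files' headers name the software as Feature Extraction 10.7.3.1 and place probes on mm8. Each spot has a deposited log10 ratio (red to green). The deposited intensity of either dye is background-subtracted and dye-normalized, and other deposited columns hold flags and stand-in values. A stand-in signal, set from background noise, replaces a signal that did not exceed background, and at every ratio deposited as exactly 0 at least 1 dye was such a value at probes printed once, among members both dyes in 34.8% and red alone in 65.2%.

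Ratios were put on the log2 scale and the spots of a probe averaged. Probes with a gene symbol (34850) and red signal of at least 25 in at least 4 arrays (28105) went into limma 3.58.1 (under R 4.3.3, read with the data.table package, 1.17.8) and were tested against 0, with Benjamini-Hochberg adjustment. The methods of the study name a t-test and filters of this kind that also required a human homolog and expression in human pancreas. Those last filters were not applied, processed signal stood in for raw expression, and limma's moderated test stood in for the t-test. Exact tests used all 256 sign flips over mice, two-sided, with a smallest p of 0.00781 and 95% intervals from the same flips, or all splits of 4 against 4 arrays. Other work used Python 3.11.15 (pandas 2.3.3, matplotlib 3.10.9, scipy 1.17.1, numpy 2.4.6). The test was run first on simulated data. Arrays give no counts, and the 8 arrays limit the precision.

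Named were all constant region probes, the 6 plasma cell genes, called members, the 5 highest and 5 lowest variable region probes with 1 direction in all mice (1 qualified), and the 3 genes of each list with the largest mean changes. The probe with the highest signal stands for a listed gene. Constant side, junction and alpha-end places were read from probe positions after the values were seen. The members, lists and rules were chosen with earlier results of these data known. Of 32 gene names, 27 matched a RefSeq symbol or synonym (GRCm38.p6). Alternatives were other signal filters, other background corrections and normalizations, the ratio of processed signals, slide as a covariate, array quality weights, other thresholds, each mouse left out, each slide alone and arrays with a good grid.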

Additional observations from a re-analysis of the deposited data

Results flagged for a closer look

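Among 29 sets of 8 values examined (19 named probes and 10 class differences), 2 had 1 mouse far from the others, and chance alone gives about 1 in 20. Tnfrsf17 was at 2.38 in mouse 4, where the next highest value was 0, and red was replaced by a stand-in value on 7 of 8 arrays. The Ighg probe A_51_P117903 was at -0.85 in mouse 4, where the next lowest value was -0.14, and red was again replaced on 7 of 8 arrays. Neither probe passed the filter on red signal, and the cause was not tested.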

How the results depend on the processing

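The count of members called higher was 2. It was 5 of 13 where the red signal had to be well above background in at least 4 arrays (0.752% of all probes there), a filter that favors probes high in NOD. It was 25 on median-centered signals, 12 with the ratio of processed signals, 4 with array quality weights, 6 at an adjusted p of 0.05, and 0 with normexp and loess, on slide 1 alone, on slide 2 alone and on arrays with a good grid. Those first alternatives also raised the calls over all probes tested, to 5976 higher and 1272 lower on median-centered signals and 3470 and 690 with processed signals, against 87 and 397 in the deposited ratios, so the members' counts are read against those. The share of all probes called higher was 0.359% with array quality weights, 0.562% at an adjusted p of 0.05, 0.217% with normexp and loess, 0% and 0.0071% on slides 1 and 2 alone and 0.014% on arrays with a good grid. With 1 mouse left out it ranged from 0 to 4. The count called lower was 0, and 1 with the ratio of processed signals, with array quality weights, at an adjusted p of 0.05 and on arrays with a good grid, where the shares of all probes called lower were 2.46%, 1.58%, 2.71% and 0.125%, and 0 to 1 with 1 mouse left out.

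The mean of the probe labeled kappa C region turned from -0.24 to 0.17 on median-centered signals and to 0.016 with normexp and loess, and that of Sdc1 from -0.17 to 0.11 on slide 2 alone. Among named members under the filter on red, median-centered signals gave 0.97 for Prdm1 (deposited -0.72), 1.27 for Ighg probe A_51_P117903 (-0.10), 2.16 for Tnfrsf17 (-0.04) and 2.69 for Irf4 (0), and the ratio of processed signals gave 0.22 for that Ighg probe and 1.11 for Irf4. With normexp and loess Prdm1 was at 0.0015 and Irf4 at -0.025. Without mouse 5, 5 class differences passed an adjusted exact p of 0.05. With 1 mouse left out, mu minus kappa ranged from 0.87 to 1.39, mu minus Igj from -0.74 to -0.53, gamma minus kappa from 0.98 to 1.83, I alpha minus Igj from -1.86 to -1.26 and kappa minus Igj from -2.12 to -1.50. The cause of these changes was not tested. Slide as a covariate and array quality weights were not run for the class differences. No paired analysis was possible because the 8 arrays form 1 group, with no second group whose replicate numbers could match. The class differences above compare probes within an array. Red was well above background on no array for 34 of the 57 members, and their ratios rest on signals near noise.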
